A study of Sus scrofa with 16 samples.

Results

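Antioxidant and glutathione genes were followed in pig left ventricle after myocardial infarction (MI) or a sham operation. The members are the glutathione transferases, glutathione peroxidases, peroxiredoxins, superoxide dismutases, thioredoxin and glutaredoxin genes, both subunits of glutamate-cysteine ligase, and GSR, GSS, CAT, NQO1, HMOX1, HMOX2, FTH1 and FTL. They were chosen by gene symbol, with earlier results of these data known, and the rule gives GCLC alone all of its probe sets. This gave 49 genes of the 6765 genes on the array that have a probe set with a single symbol. Each gene was read from its probe set with the highest mean signal, and all 5 probe sets of GCLC were followed. The 49 genes have 76 probe sets in all: 31 genes have 1, and 18 have several. NFE2L2, KEAP1 and SRXN1 were not analysed here.

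Glutathione is a tripeptide that cells hold in large amounts as a reducing agent. Glutamate-cysteine ligase, made of the catalytic subunit GCLC and the modifier subunit GCLM, carries out the rate-limiting step of its synthesis. Glutathione peroxidases and peroxiredoxins reduce peroxides, superoxide dismutases and catalase remove superoxide and hydrogen peroxide, and the thioredoxin and glutaredoxin systems return oxidised protein thiols to the reduced state. The transcription factor NRF2 is known to drive many of these genes, among them GCLC, GCLM, NQO1, HMOX1 and TXNRD1. In heart muscle, whose mitochondria are dense, these systems handle the oxidants made by respiration and after ischaemia.

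The animals were Yorkshire x Landrace swine aged 2 to 3 months, and each gave 1 Affymetrix porcine array of total RNA from crushed frozen myocardium. The MI group held 8 animals and the Sham group 8, sampled 3 weeks after surgery, each with 4 females and 4 neutered males by the labels. No label says how the infarct was made or from where in the ventricle, relative to it, the tissue came. A log2 signal is used throughout, so a difference of 1 is a doubling, and signals of different probe sets cannot be set against each other.

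All 16 arrays had the same median signal (6.24), and correlated pairwise at 0.972 to 0.992. The cardiomyocyte markers of the tissue check, 16 of 16, lay above background, and 0 of them passed by limma or had an unadjusted p under 0.05. Their mean signal ran from 13.2 to 13.5 in MI and from 13.2 to 13.4 in Sham. The background was set at 4.99, the highest single value of 23 control probe sets without a target in the pig. Spike-in controls split the arrays into set A (6 MI and 5 Sham) and set B (MI 7, MI 8, Sham 6, Sham 7 and Sham 8), a division that no label names. The 3' minus 5' signal of actin, a sign of RNA quality, averaged 2.64 ± 0.29 over set A (SD, n = 11) and 1.42 ± 0.14 over set B (SD, n = 5). MI 7, labelled female, gave a signal of 9.51 for the Y-linked EIF1AY, against 9.40 to 9.96 in the 8 males and 3.00 to 3.51 in the other 7 females. The label of MI 7 was kept, so below it counts as a female, and results by sex are given without it too.

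Of the 49 genes, 2 rose in MI by limma (adjusted p under 0.05 over all 23999 probe sets) and 0 fell. The 2 were GCLC, by 0.44, and GPX6, a selenium-type peroxidase known from olfactory tissue, by 0.40. They make up 4.08% of the members, where 4.12% of all 6765 genes were called higher and 3.5% lower, so the share of members called was near that of all genes. An unadjusted p under 0.05 was found for 8 members (16.3%), all with a positive difference, and for 18.1% of all genes. Groups that did not overlap were seen in 1 member, GPX6 (2.04%), and in 1.83% of all genes. In bulk tissue, a change in the number of cells that carry an RNA and a change in the RNA per cell cannot be told apart.

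By role, an unadjusted p under 0.05 was found for 2 of 4 genes of glutathione synthesis and recycling, 2 of 8 transferases, 1 of 7 glutathione peroxidases, 2 of 15 genes of the thioredoxin and glutaredoxin systems and 1 of the 3 of NQO1 and the heme oxygenases. It was found for 0 of 6 peroxiredoxins, 0 of 4 superoxide dismutases and catalase, and 0 of 2 ferritins. The share over all genes was 18.1%, and with so few genes in each role the counts set no role apart.

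Differences over the members were small and leaned upward. They ran from -0.15 to 0.44 with a median of 0.0681, against a median of 0.00483 over all genes, and 34 of 49 were positive (69.4%, against 51.3% of all genes). The size of the difference was under 0.2 in 40 of the 49, and in 40 the 95% confidence interval lay within 0.5 of zero on both sides. Over all 6765 genes the same counts were 5171 and 5385. The median size was 0.0934 over the members and 0.105 over all genes, so small differences were usual on this array. Sham 7, a set B array, had the lowest Sham value in 23 of the 49 members (46.9%, against 23.5% of all genes). Without Sham 7 the positive members numbered 28 (57.1%) and their median was 0.0352. Without MI 2 they also numbered 28, and in set B alone 26.

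**Figure D1:**
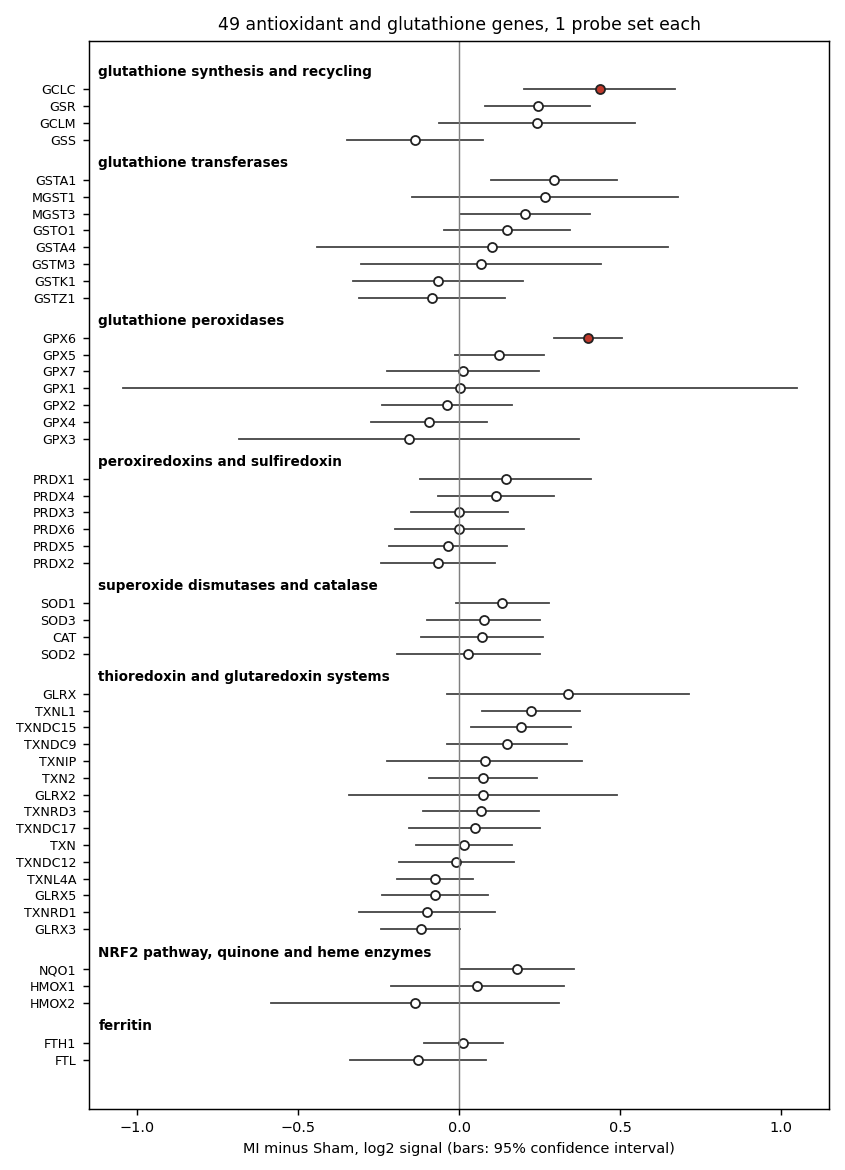
Difference in log2 signal between MI and Sham for the 49 genes, grouped by role and ordered by size, with 95% confidence intervals. Red points passed the test. Only GCLC (0.44) and GPX6 (0.40) are red, and the interval of GPX1 (-1.04 to 1.05) is the widest.

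Glutathione synthesis and recycling held 4 members, of which GCLC rose and 3 did not pass. The GCLC gene lies on chromosome 7 of the assembly Sscrofa11.1 (27209565 to 27253535), and 5 probe sets carry its symbol. On the probe set Ssc.29035.1.S1_at the Sham animals ran from 4.84 through a median of 5.43 to 5.57, and the MI animals from 5.49 through 5.83 to 6.19. The groups overlapped by a single MI animal: 7 of 8 MI animals lay above every Sham animal, and the lowest Sham value, that of Sham 7, stood apart from the other Sham values (5.37 to 5.57). The mean was 5.82 ± 0.21 in MI and 5.39 ± 0.23 in Sham (SD, n = 8 each). This is a rise of 0.44 (SE 0.11), or 1.35-fold, with an adjusted p of 0.0186. Without Sham 7 the difference was 0.36 (adjusted p = 0.0222), and without MI 7 it was 0.42 (0.0352). With animals of the same number as a block, a pairing that no label gives, this probe set did not pass.

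Of the 4 other GCLC probe sets, 3 rose as well. Ssc.29035.2.A1_at ran from 4.91 to 5.54 (median 5.28) in Sham and from 5.52 to 5.94 (median 5.70) in MI. With 6 of 8 MI animals above every Sham animal, it rose by 0.45 (SE 0.09, adjusted p = 0.0041). Ssc.11731.2.S1_at ran from 4.52 to 5.01 (median 4.80) in Sham and from 4.95 to 5.32 (median 5.15) in MI, and 7 of 8 MI animals were above all Sham animals. It rose by 0.35 (SE 0.08, adjusted p = 0.00936). Its mean was 4.80 in Sham, below the background of 4.99, and 5.15 in MI, close above it. Ssc.11731.1.A1_at rose by 0.35 (SE 0.09, adjusted p = 0.0285) from a Sham median of 4.47 (4.11 to 4.60) to an MI median of 4.75 (4.47 to 5.20). This probe set was below background, and it no longer passed without any 1 of MI 1, MI 2, MI 7, Sham 5, Sham 6 or Sham 8 (differences down to 0.30, adjusted p up to 0.0595, and 0.0508 without MI 7).

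Ssc.2166.1.A1_at did not pass. Its Sham animals ran from 4.77 to 5.98 (median 5.43) and its MI animals from 5.31 to 6.27 (median 5.37), so the groups overlapped widely. The difference was 0.23 (SE 0.20, 95% interval -0.20 to 0.66, adjusted p = 0.554). The probe sets of GCLC share the gene and the animals and are not independent replicates of the finding. Without MI 7, 3 of the 5 passed.

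**Figure D2:**
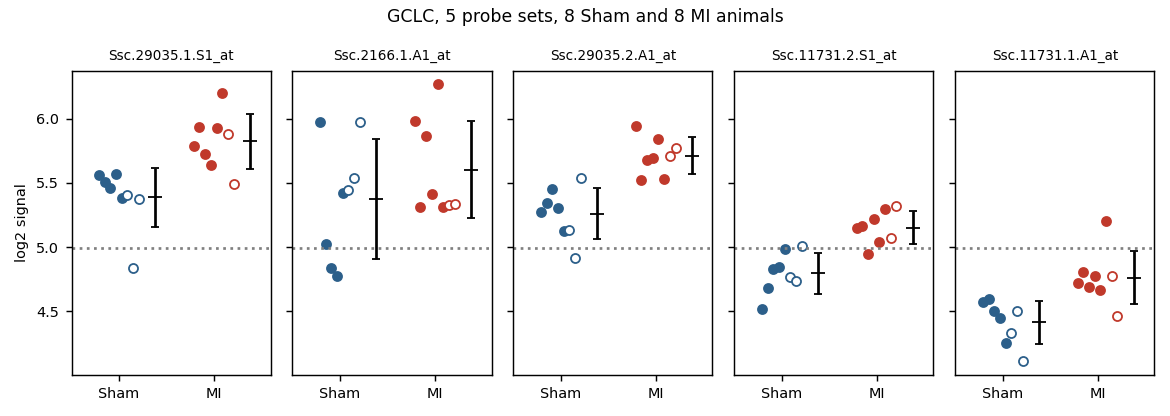
Log2 signal of GCLC on each of its 5 probe sets in 8 Sham (blue) and 8 MI (red) animals. Filled points are arrays of set A and open points arrays of set B, the black bar is the mean with its SD, and the dotted line is the background of 4.99. MI animals sit higher on 4 probe sets, while on Ssc.2166.1.A1_at the groups overlap.

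Within set A alone (6 MI, 5 Sham) GCLC differed by 0.37 on Ssc.29035.1.S1_at (adjusted p = 0.0524), by 0.41 on Ssc.29035.2.A1_at (0.0310), by 0.37 on Ssc.11731.2.S1_at (0.0477) and by 0.32 on Ssc.11731.1.A1_at (0.106). In set B alone (2 MI, 3 Sham, fitted without sex) the same probe sets differed by 0.48, 0.54, 0.36 and 0.30, with adjusted p from 0.415 to 0.574. These 4 probe sets were higher in MI in both sets, whereas Ssc.2166.1.A1_at differed by 0.53 in set A and by -0.32 in set B.

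GCLM, the modifier subunit on chromosome 4 (123371198 to 123390130), did not pass on its main probe set. Sham animals ran from 4.997 to 6.05 (median 5.68) and MI animals from 5.42 to 6.54 (median 5.87), with 3 of 8 MI animals above all Sham animals. The difference was 0.24 (SE 0.14, adjusted p = 0.341), 0.18 in set A and 0.07 in set B. A second GCLM probe set, Ssc.24693.1.S1_at, fell by 0.29 (SE 0.09, adjusted p = 0.0436), but it was below background in both groups (3.74 and 4.02) and kept its call in 3 of the 16 fits without 1 animal, those without MI 8, Sham 3 or Sham 6 (adjusted p up to 0.0884 otherwise). The direction for GCLM therefore depended on the probe set.

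GSR, the reductase that returns oxidised glutathione to its reduced form, lay just outside the threshold. Its Sham values ran from 8.07 to 8.55 (median 8.26) and its MI values from 8.23 to 8.75 (median 8.51), with 4 of 8 MI animals above every Sham animal. The difference was 0.24 (SE 0.08, adjusted p = 0.0538), and 0.0428 when blocked on the spike-in set. Within the sets alone GSR did not pass, at 0.24 in set A (0.123) and 0.11 in set B (0.821). Its 2 other probe sets differed by 0.23 and 0.09 and did not pass. GSS, glutathione synthetase, which completes the tripeptide, was 6.998 ± 0.23 in MI and 7.13 ± 0.16 in Sham (SD, n = 8 each), a difference of -0.14 (adjusted p = 0.457).

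Glutathione transferases, which join glutathione to reactive compounds, held 8 members, and 0 passed. GSTA1, an alpha-class transferase, had the smallest p of the group, on a probe set of the kind that can match several related transcripts. Its Sham animals ran narrowly from 5.36 to 5.66 (median 5.49) and its MI animals from 5.55 to 6.13 (median 5.77), with 5 of 8 MI animals above all Sham animals. The difference was 0.30 (SE 0.09, adjusted p = 0.0527), 0.0386 when blocked on the spike-in set, 0.37 in set A (0.0409) and 0.11 in set B (0.813). Its 2 other probe sets, both below background, differed by 0.11 and -0.02.

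MGST3, a microsomal transferase of the membrane, ran from 11.50 to 12.12 (median 12.01) in Sham and from 11.84 to 12.36 (median 12.24) in MI, and 5 of 8 MI animals were above all Sham animals. The difference was 0.21 (SE 0.09, adjusted p = 0.203), 0.21 in set A and 0.11 in set B, and the lowest Sham value was again that of Sham 7. MGST1, the other microsomal enzyme, differed by 0.27 (95% interval -0.15 to 0.68). GSTA4, known for clearing lipid aldehydes such as 4-hydroxynonenal, varied widely: Sham animals ran from 6.34 to 8.17 (median 6.88) and MI animals from 6.41 to 7.83 (median 7.01). Its difference of 0.10 (SE 0.26, adjusted p = 0.862) was small beside a within-group SD of 0.54. The remaining transferases GSTO1 (0.15), GSTM3 (0.07), GSTK1 (-0.07) and GSTZ1 (-0.08) had adjusted p from 0.368 to 0.867.

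Glutathione peroxidases held 7 members, of which GPX6 rose. GPX6 lies on chromosome 7 (22256013 to 22267992). Every Sham animal lay between 4.25 and 4.50 (median 4.41), and every MI animal between 4.73 and 4.86 (median 4.81). The groups did not overlap, with a gap wider than the spread of the MI group. The difference in signal was 0.40 (SE 0.05, adjusted p = 0.000164), 0.41 in set A (adjusted p = 0.00375) and 0.41 in set B (0.404), and 0.40 without MI 7 (0.000445). All 16 values lay below the background of 4.99, so no fold change is given, and GPX6 was not shown to be detected in this tissue in either group. GPX5, an epididymal peroxidase also below background, ran from 3.41 to 3.76 (median 3.68) in Sham and from 3.61 to 3.93 (median 3.77) in MI, a difference of 0.13 (SE 0.07, adjusted p = 0.265).

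GPX1, the abundant cytosolic peroxidase, showed the largest spread of all members (within-group SD 1.09). Sham animals ran from 8.17 to 11.48 (median 11.17) and MI animals from 8.31 to 11.49 (median 11.31). A single animal of each group stood apart: MI 7 at 8.31 and Sham 5 at 8.17, while the other 14 animals lay between 10.41 and 11.49. The difference was 0.00 (SE 0.49, 95% interval -1.04 to 1.05), so these data do not fix the direction for GPX1. Set A alone, which holds Sham 5, gave 0.62, and set B alone, which holds MI 7, gave -1.56. Over all arrays the difference was -0.37 without Sham 5 and 0.38 without MI 7.

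GPX3, the secreted plasma peroxidase, ran from 8.41 to 9.87 (median 9.05) in Sham and from 7.89 to 10.002 (median 9.04) in MI. The groups overlapped nearly throughout, and the difference was -0.15 (SE 0.25, adjusted p = 0.774). Its mean over the 11 arrays of set A was 8.84 ± 0.52 and over the 5 of set B 9.47 ± 0.38 (SD), so it moved with the spike-in set. GPX4, which reduces lipid hydroperoxides and guards against ferroptosis, differed by -0.09 (95% interval -0.27 to 0.09). GPX2, the intestinal form, differed by -0.04, and the endoplasmic reticulum enzyme GPX7 by 0.01 on its main probe set. A further GPX7 probe set, Ssc.9977.1.A1_at, fell by 0.61 (SE 0.14, adjusted p = 0.0105), from a Sham median of 7.04 (6.69 to 7.65) to an MI median of 6.62 (5.75 to 6.85). On it 7 of 8 MI animals lay below every Sham animal, and the call held in all 16 fits without 1 animal. Set A alone gave -0.43 (0.0468) and set B alone -0.999 (0.338), while the third GPX7 probe set differed by 0.08.

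Peroxiredoxins, which reduce peroxides through a reactive cysteine, held 6 members, and 0 passed. PRDX3, the mitochondrial peroxiredoxin, ran from 12.02 to 12.50 (median 12.33) in Sham and from 12.13 to 12.40 (median 12.34) in MI. Its difference was 0.00 (SE 0.07, 95% interval -0.15 to 0.15, adjusted p = 0.995). PRDX6, which also repairs membrane lipids, differed by 0.00, PRDX2, abundant in red cells, by -0.07, and PRDX5 by -0.03. PRDX1, a cytosolic NRF2 target, differed by 0.14 and the endoplasmic reticulum form PRDX4 by 0.12. The intervals of all 6 lay within 0.5 of zero.

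Superoxide dismutases and catalase held 4 members with 4 positive differences, and 0 passed. SOD1, the copper-zinc enzyme of the cytosol, ran from 11.14 to 11.50 (median 11.42) in Sham and from 11.23 to 11.76 (median 11.57) in MI. There 6 of 8 MI animals lay above all Sham animals and 2 within their range. The difference was 0.13 (SE 0.07, adjusted p = 0.242), 0.15 in set A and -0.03 in set B. The extracellular SOD3 differed by 0.08, the mitochondrial SOD2 by 0.03 and CAT, the peroxisomal catalase, by 0.07 (95% interval -0.12 to 0.26).

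The thioredoxin and glutaredoxin systems held 15 members, and 0 passed. TXNL1, a thioredoxin-like protein tied to the proteasome, came closest. Its Sham animals ran from 10.25 to 10.64 (median 10.39) and its MI animals from 10.48 to 10.78 (median 10.67), with 5 of 8 MI animals above all Sham animals. The difference was 0.22 (SE 0.07, adjusted p = 0.0581), 0.29 in set A (0.0272) and 0.09 in set B (0.868). Blocked on the spike-in set it was 0.21 (0.0581), and 0.22 (0.0696) when MI 7 was also left out. Both of its other probe sets differed upward, by 0.07 and 0.24, without passing.

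TXNDC15, a membrane protein with a thioredoxin domain, ran from 9.36 to 9.81 (median 9.60) in Sham and from 9.59 to 9.97 (median 9.75) in MI. Its groups overlapped over a wide range, and the difference was 0.19 (SE 0.07, adjusted p = 0.109), 0.25 in set A (0.0704) and 0.17 in set B (0.671). Another TXNDC15 probe set, Ssc.8313.1.A1_at, rose by 0.39 (SE 0.09, adjusted p = 0.00909) but was below background, and the third differed by 0.18 (0.272). GLRX, the cytosolic glutaredoxin that removes glutathione from protein cysteines, ran from 6.96 to 8.13 (median 7.70) in Sham and from 6.94 to 8.52 (median 8.14) in MI. With 4 MI animals above and 1 below all Sham animals, its difference was 0.34 (SE 0.18, adjusted p = 0.265). Set A alone gave 0.53 (0.0493) and set B alone -0.42 (0.676).

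GLRX3, an iron-sulfur cluster protein with glutaredoxin domains, had the negative difference with the smallest p. Sham animals ran from 10.41 to 10.73 (median 10.54) and MI animals from 10.35 to 10.55 (median 10.42), with 3 of 8 MI animals below all Sham animals. The difference was -0.12 (SE 0.06, adjusted p = 0.227). TXNIP, the inhibitor of thioredoxin that responds to glucose, ran from 12.99 to 13.78 (median 13.31) in Sham and from 12.77 to 13.78 (median 13.48) in MI, and differed by 0.08 (SE 0.14, adjusted p = 0.8). The thioredoxins themselves differed by 0.02 (TXN, cytosolic) and 0.07 (TXN2, mitochondrial).

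TXNRD1, the cytosolic thioredoxin reductase, ran from 7.65 to 8.49 (median 8.13) in Sham and from 7.77 to 8.22 (median 8.00) in MI on its main probe set, a difference of -0.10 (SE 0.10, adjusted p = 0.613), with -0.14 in set A and -0.18 in set B. Ssc.6097.1.S1_at, another TXNRD1 probe set well above background, rose by 0.35 (SE 0.10, adjusted p = 0.0350), from 7.70 (7.21 to 8.02) to 8.02 (7.71 to 8.26) in the medians. It lost its call without any 1 of MI 1, MI 2, MI 3, MI 4, MI 6, MI 7, Sham 1, Sham 3 or Sham 7 (adjusted p up to 0.0707). The third TXNRD1 probe set differed by -0.07 with an interval of -0.66 to 0.52, so the gene has no single direction here. TXNRD3, a reductase with an added glutaredoxin domain, differed by 0.07. Its signal ran from 5.73 to 6.41 in Sham and from 5.79 to 6.37 in MI. The remaining members of these systems were TXNDC9 (0.15), GLRX2 of the mitochondria (0.07), TXNDC17 (0.05), TXNDC12 of the endoplasmic reticulum (-0.01), GLRX5, which serves iron-sulfur cluster assembly (-0.07), and TXNL4A, a spliceosome protein with a thioredoxin fold (-0.07).

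NQO1 and the heme oxygenases gave 0 passing members of 3. Of these, NQO1 and HMOX1 are held as readouts of NRF2 activity in many settings. NQO1, a quinone reductase, ran from 8.33 to 9.04 (median 8.71) in Sham and from 8.51 to 9.13 (median 8.87) in MI, with 2 of 8 MI animals above all Sham animals. The difference was 0.18 (SE 0.08, adjusted p = 0.191), 0.27 in set A (0.0504) and -0.04 in set B. HMOX1, the inducible heme oxygenase, ran from 6.76 to 7.99 (median 7.08) in Sham and from 6.82 to 7.60 (median 7.27) in MI, a difference of 0.06 (SE 0.13, adjusted p = 0.842). Like that of GSTA1, its probe set is of the kind that can match several related transcripts. HMOX2, the constitutive form, ran from 8.20 to 9.54 (median 8.81) in Sham and from 7.93 to 9.72 (median 8.51) in MI. It differed by -0.14 (SE 0.21, adjusted p = 0.763), and its mean over the 11 arrays of set A was 8.45 ± 0.28 and over the 5 of set B 9.32 ± 0.37 (SD).

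The ferritin subunits, which store iron away from peroxide chemistry, did not pass. FTH1, the heavy subunit, was among the steadiest members: Sham animals ran from 13.49 to 13.71 (median 13.54) and MI animals from 13.42 to 13.75 (median 13.59). Its difference was 0.01 (SE 0.06, 95% interval -0.11 to 0.14, adjusted p = 0.926). FTL, the light subunit, ran from 12.04 to 12.49 (median 12.20) in Sham and from 11.76 to 12.55 (median 12.04) in MI. With 4 MI animals below and 1 above all Sham animals it differed by -0.13 (SE 0.10, adjusted p = 0.494), and its second probe set by -0.15.

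**Figure D3:**
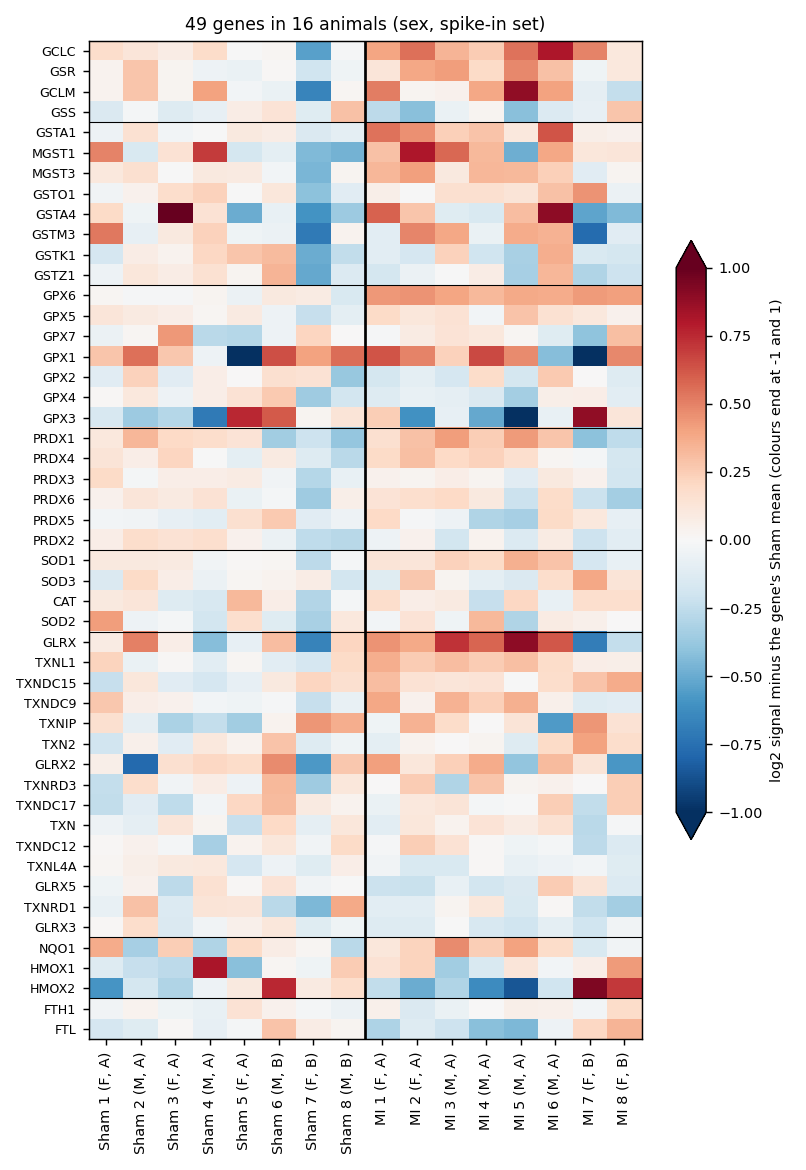
Log2 signal of the 49 genes in each animal minus the gene's Sham mean, with red above and blue below; colours end at -1 and 1, and labels give sex and spike-in set. Rows are grouped by role, and the line separates Sham from MI. GPX6 is red in all 8 MI animals, GCLC in 8 with the palest in MI 8, and Sham 7 is blue across many rows.

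Of the 8 members with an unadjusted p under 0.05, GCLC, GPX6, GSTA1, GSR, TXNL1, TXNDC15, NQO1 and MGST3, 4 passed without MI 7 (GCLC, GPX6, GSR and GSTA1) and 4 without MI 8 (GCLC, GPX6, GSTA1 and TXNL1). By single animals, GSTA1 passed without MI 5, MI 7 or MI 8, GSR without MI 4, MI 7 or Sham 2, TXNL1 without MI 8, Sham 1 or Sham 8 and TXNDC15 without Sham 7. Blocking on the spike-in set left 5 passing: GCLC, GPX6, GSR, GSTA1 and TXNDC15. MI 7 had the lowest MI value in 16 members (32.7%, against 19.8% of all genes).

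Over all 76 probe sets of these genes, 7 rose (9.21%) and 2 fell (2.63%), where 5.39% of all 23999 probe sets rose and 5.14% fell. Of the 7, 4 belong to GCLC and the others to GPX6, TXNDC15 and TXNRD1. The 2 that fell belong to GCLM and GPX7. Among the 18 genes with several probe sets, 12 had differences of 1 sign and 6 of both signs (GCLM, GPX5, GPX7, GSTA1, GSTA4 and TXNRD1). In 0 genes did probe sets pass in opposite directions, and 20 of the 27 probe sets other than the main ones did not pass, among them the second of GLRX (0.33) and of TXN (0.24).

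**Figure D4:**
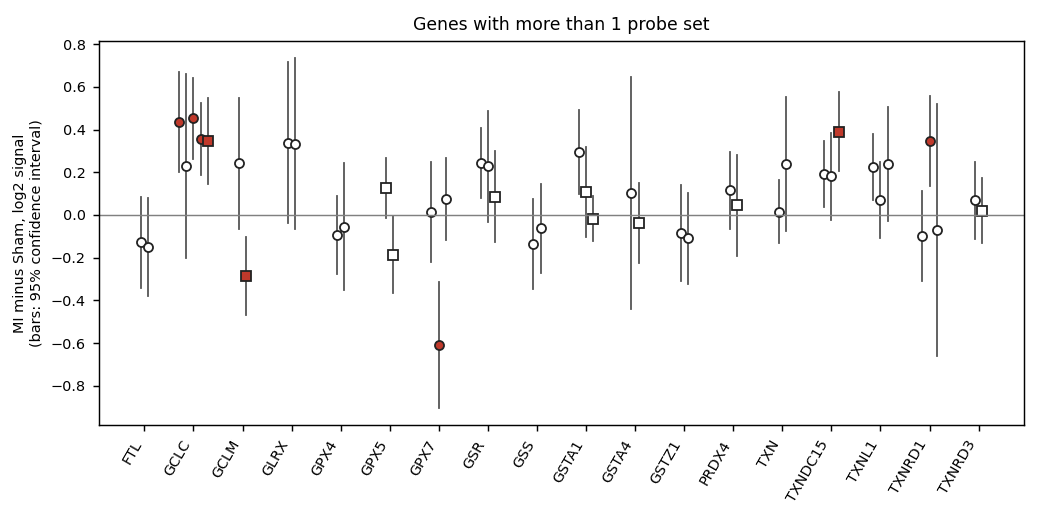
Difference in log2 signal between MI and Sham for every probe set of the 18 genes with more than 1, brightest probe set first, with 95% confidence intervals. Circles are above and squares below background, and red marks a passing probe set. GCLC has 4 red points above zero; GCLM and GPX7 each have 1 red point below zero beside others near or above it.

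Between females and males 0 of 49 members passed by limma, where 0.0591% of all genes did, and 5 had an unadjusted p under 0.05 (10.2%, against 3.25% of all genes). All 5 (GLRX, GCLM, TXNRD1, SOD1 and TXN) had lower means in females. GLRX was 7.54 ± 0.43 in females and 8.05 ± 0.41 in males (SD, n = 8 each), and the difference of -0.52 had an SE of 0.18 and an adjusted p of 0.998. GCLM was 5.60 ± 0.33 and 5.95 ± 0.31 (-0.35, SE 0.14), and TXNRD1 7.94 ± 0.18 and 8.17 ± 0.22 (-0.23, SE 0.10), with the same adjusted p. GLRX and GCLM also had lower means in set B, by 0.56 and 0.48 in size, and the MI males were all in set A. Blocked on the spike-in set, GLRX differed by -0.46 (SE 0.16) and GCLM by -0.29 (SE 0.11). In that fit 0 members passed by limma and 4 had an unadjusted p under 0.05 (GCLM, GLRX, SOD1 and TXNRD1), against 4.29% of all genes. Without MI 7, 0 members passed and 2 had an unadjusted p under 0.05 (GLRX and GLRX5), with GLRX at -0.41 (SE 0.16) and GCLM at -0.32 (SE 0.15).

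The MI difference was then compared between the sexes through the interaction of group and sex. Of all genes 0% passed and 6.24% had an unadjusted p under 0.05; of the members 0 passed and 4 had an unadjusted p under 0.05 (8.16%). In NQO1 the males were 8.99 ± 0.13 in MI and 8.46 ± 0.19 in Sham, and the females 8.70 ± 0.16 and 8.87 ± 0.15 (SD, n = 4 each). By the labels all 4 MI males lay above all 4 Sham males, while the females overlapped. MI 7, whose EIF1AY signal was in the male range, had the lowest MI value (8.51), below that of the male Sham 6 (8.74). The interaction, the female difference minus the male, was -0.70 (SE 0.16, unadjusted p = 0.000641, adjusted p = 0.794 by limma), and -0.64 without MI 7 (SE 0.17, unadjusted p = 0.00169, adjusted p = 0.979).

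HMOX1 went the other way in its means, with a female difference of 0.43 and a male difference of -0.32 (interaction 0.75, SE 0.25, adjusted p = 0.794). By the labels all 4 MI females (7.24, that of MI 7, to 7.60) lay above all 4 Sham females (6.76 to 7.13). The males of the groups overlapped, and the male Sham 4 had the highest value (7.99). TXNRD3 gave 0.30 in females and -0.16 in males (0.46, SE 0.17), and HMOX2 0.40 and -0.67 (1.08, SE 0.42), with the same adjusted p. In HMOX2 the highest MI values, those of MI 7 (9.72) and MI 8 (9.50), were of set B arrays labelled female. Without MI 7 the interaction was 0.84 (SE 0.39) in HMOX2, 0.80 (SE 0.27) in HMOX1 and 0.50 (SE 0.18) in TXNRD3, each with an adjusted p of 0.979. MI females lie 2 in set A and 2 in set B and MI males 4 in set A, so sex and spike-in set are partly mixed within MI. Blocked on the spike-in set, the interaction was -0.64 (SE 0.18) in NQO1, 0.73 (SE 0.28) in HMOX1, 0.48 (SE 0.19) in TXNRD3 and 0.52 (SE 0.31) in HMOX2, and 0 members passed.

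**Figure D5:**
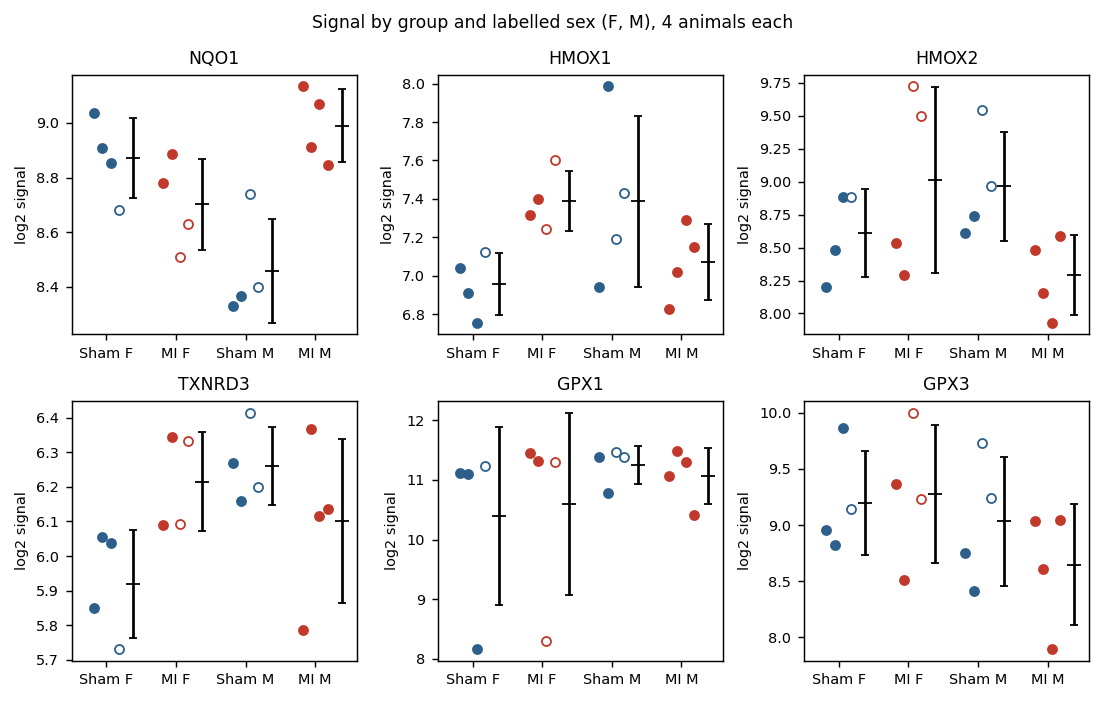
Log2 signal of 6 members by group and labelled sex, 4 animals each; filled points are set A, open points set B, and the black bar is the mean with its SD. In NQO1 the 4 MI males lie above the 4 Sham males; in GPX1 a single Sham female (8.17) and a single MI female (8.31) lie far below the rest.

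Genes that feed or surround these systems were read by list, beside the 4.12% of all genes called higher and 3.5% called lower. At those shares lists of this length hold few calls, so the counts set none of them apart. Of 12 NADPH-supplying genes 0 passed (1 at an unadjusted p under 0.05), and the smallest p belonged to TALDO1 (-0.21, adjusted p = 0.149) and TKT (0.18, 0.25), enzymes of the pentose phosphate pathway. Of 16 genes of cysteine and glutathione supply, export and breakdown 1 rose, SLC7A9, a subunit of a cystine transporter, by 0.28 (0.0268) from a level below background; DPEP1, a dipeptidase, differed by -0.17 (0.181). Of 9 partners and further targets of NRF2 0 passed (2 at an unadjusted p under 0.05), with the aldehyde reductase AKR1A1 at 0.37 (0.0552) and the carbonyl reductase CBR3 at -0.14 (0.188). Of the NRF2 targets named in the opening, GCLC rose, while GCLM, NQO1, HMOX1 and TXNRD1 did not pass on their main probe sets. PRDX1, described above as a target, did not pass either, and the members were not sorted fully by this trait.

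Of 14 genes of heme and iron handling 2 rose. HAMP, which encodes the iron hormone hepcidin, was 5.46 ± 0.14 in MI and 4.79 ± 0.11 in Sham (0.67, SE 0.07, adjusted p = 5.68e-05). HP, haptoglobin, rose by 0.44 (0.0287). Both rose from a Sham mean below background (4.79 in HAMP and 4.80 in HP). Of 12 oxidant-producing enzymes and their partners 1 fell, DUOX2, an NADPH oxidase below background here, by 0.54 (0.00235); RAC2, an activator of the phagocyte oxidase, differed by -0.28 (0.0501). Of 20 genes of repair of oxidised protein and DNA and further selenoproteins 0 passed (1 at an unadjusted p under 0.05), with MSRB2, a mitochondrial methionine sulfoxide reductase, at 0.40 (0.15) and the metallothionein MT1A at 0.30 (0.227).

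Markers of other cells that the tissue holds were read beside these results. Of 6 erythroid markers 3 rose, HBM, AHSP (from a Sham mean of 4.85, below background) and, below background, HBE1. ALAS2 differed by 0.59, HBB by -0.06 and KLF1 by -0.03 without passing. The mean over the list ran from 5.79 to 6.78 in MI and from 5.69 to 6.01 in Sham. Of 12 macrophage markers CD14 rose (mean of the list 7.48 to 7.95 in MI and 7.52 to 7.92 in Sham), and 0 others passed. Of 5 neutrophil markers MMP9 rose, from a Sham mean of 4.76, below background. S100A8 (-0.21), S100A12 (-0.14), S100A9 (-0.54) and CXCL8 (-0.13), all below background, did not pass (mean of the list 4.01 to 4.46 and 4.00 to 4.88). Of 7 adipocyte markers 2 rose, ADIPOQ (below background) and PPARG, and 1 fell, RETN (7.13 to 7.38 and 6.91 to 7.28). By limma 0 of 11 fibroblast, 12 endothelial and 5 smooth muscle markers passed (0, 1 and 0 at an unadjusted p under 0.05). The part of these cells in the GCLC difference was not tested.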

How the data were processed

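The authors deposited 1 table of log2 signals for 16 arrays, judged to be log2 and normalized between arrays from their range (2.87 to 14.9) and equal medians. How these values were made is not given in the sources used here, and they were taken as deposited. Of 24123 probe sets, 124 controls were left out. Symbols came from the platform annotation: 10069 probe sets carry 1 symbol, 198 several and 13732 none. All 49 members were found by Entrez identifier in RefSeq (Sscrofa11.1), which gave the positions. No sequences were at hand.

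Values were tested with limma 3.58.1 in R 4.3.3: 1 coefficient for each of 4 cells of group and sex, 12 residual degrees of freedom, empirical Bayes with 3.28 prior degrees of freedom, two-sided, Benjamini-Hochberg over 23999 probe sets. Replicates are separate animals, and their number limits the precision. The fit was tested on simulated data. Calls use an adjusted p under 0.05. Animals numbered alike in the titles were not taken as pairs. The members and lists were chosen with earlier results of these data known. Every member is named; spread and error are given for all GCLC probe sets, members that passed, the 12 smallest p-values, the 4 highest signals, the 4 largest SDs and the 3 smallest p-values for sex and for the interaction; of other pathway lists, genes that passed and the 2 smallest p-values. Alternatives changed the model, normalization, offset, filter, arrays and animals. Set A alone kept sex in the model, and set B alone was fitted without it.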

Additional observations from a re-analysis of the deposited data

Results flagged for a closer look

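Within groups of 8 animals, 18 of 152 sets of values held an animal far from the rest (its gap to the nearest animal, over the whole range, above Dixon's 95% critical value), where chance gives about 7.6. Sham 7 accounted for 8 of them, all low: GCLC on Ssc.29035.1.S1_at at 4.84, GCLM at 4.997, MGST3 at 11.50, PRDX6 at 11.04, SOD1 at 11.14, GSR on Ssc.23488.1.S1_at at 5.09, GSS on Ssc.2813.2.S1_at at 5.88 and TXNL1 on Ssc.4829.3.S1_at at 7.28. The median deviation of Sham 7 from the Sham mean was -0.167 over the members and -0.0123 over all genes. MI 7 was low in GPX1 (8.31) and in GSR on Ssc.23488.1.S1_at (5.58). Sham 5 was low in GPX1 (8.17). Sham 3 was high in GSTA4 (8.17) and low in GLRX5 (10.50). Sham 4 was low in TXNDC12 (7.77), MI 5 low in TXNDC15 on Ssc.8313.3.S1_at (7.13) and MI 6 high in GCLC on Ssc.11731.1.A1_at (5.20). MI 8 was high in TXNRD1 on Ssc.22447.1.S1_at (7.40) and MI 4 high in TXNRD3 on Ssc.3749.3.S1_at (4.92).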

How the results depend on the processing

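The call of GPX6 held by limma under every alternative that tested it except set B alone, and that of GCLC on Ssc.29035.1.S1_at under all but the replicate block, set A and set B. Against 2 members passing, 4 passed without sex in the model, with an offset of 32 and in set A, 6 with array weights, 5 when blocked on the spike-in set and 5 when MI 7 was also left out, 1 among the 16000 brightest probe sets and 1 among those above background (chosen after seeing the data), and 0 in set B. Of the GCLC probe sets, 2 passed among the brightest, 2 in set A and 0 in set B. Of all probe sets, 654 passed among the brightest, 993 above background and 1 in set B. Fewer probe sets or animals enter these last alternatives. Each of the filters by brightness and by background left 47 members and took out GPX6, so GPX6 was not tested there, and GCLC passed. The GCLC probe sets called in the main fit but not among the brightest were also taken out by that filter. Why fewer passed otherwise was not tested. All 654 and all 993 were also among the 2527 called in the main fit. Leaving out 1 animal at a time gave 2 to 4 members, 3 to 4 GCLC probe sets, 2045 to 2537 of all probe sets, and 13 to 18 between the sexes.

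No label says that the numbers in the titles pair animals, so they were not taken as pairs. Correlations of deviations between animals of the same number ran from -0.07 to 0.46, which does not settle whether they are pairs. With the replicate block 2395 probe sets passed, 2 members (GPX6 and GSR), 3 GCLC probe sets and 0 between the sexes.

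Some members that did not pass changed sign: 18 of the 49 in set B alone (fitted without sex), 5 in set A, 4 with array weights, 3 with the spike-in block and 2 with quantile normalization. Among the members described with their spread, in set B alone NQO1 differed by -0.037, FTL by 0.15, SOD1 by -0.034, GPX3 by 0.25, GCLC on Ssc.2166.1.A1_at by -0.32, HMOX2 by 0.48, GSTA4 by -0.14, GPX1 by -1.56 and GLRX by -0.42. In set A FTH1 differed by -0.019 and PRDX3 by -0.042. With array weights FTH1 differed by -0.012 and PRDX3 by -0.023. With quantile normalization PRDX3 differed by -0.024 and GPX1 by -0.0049. With the spike-in block PRDX3 differed by -0.021 and GPX1 by -0.016, and PRDX3 by -0.054 when MI 7 was also left out. As means of all probe sets of the gene GCLM differed by -0.022, GPX5 by -0.031 and TXNRD1 by 0.059. Leaving out 1 animal moved HMOX1 from -0.017 to 0.16, FTH1 from -0.015 to 0.040, PRDX3 from -0.049 to 0.031, GSTA4 from -0.0097 to 0.30 and GPX1 from -0.37 to 0.38. The cause was not tested.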
